A study of Homo sapiens with 6 samples.

Results

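The mRNA of 10 heat shock chaperone genes was examined in each library as a readout of protein stress, with emphasis on the mitochondrial members. The genes were chosen by name out of 63241 genes in the count table, and all 10 were found and passed the filter on low counts. They comprise 5 cytosolic genes (HSPA8, HSP90AA1, HSP90AB1, HSPB1 and DNAJB1), 2 ER genes (HSPA5 and HSP90B1) and 3 mitochondrial genes (HSPD1, HSPE1 and HSPA9). The cells were HT-1376, an established human bladder carcinoma line. Of the 6 libraries, 3 came from cells with a control siRNA (siNC, genotype label WT) and 3 from cells with an siRNA against SHMT2 (siSHMT2, genotype label SHMT2 knockdown), and all cells were collected 24 h after transfection. A single siRNA served as siSHMT2 and both groups received the transfection reagent, with no untransfected library among the 6. The study calls the replicates biological, and neither it nor the labels say whether they came from separate cultures, so the p-values measure the spread between these libraries.

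Chaperones help other proteins to fold, and each compartment of the cell holds its own set. In the cytosol the HSP70 and HSP90 chaperones work with J-domain cochaperones and small heat shock proteins, and the factor HSF1 raises their genes through heat shock elements when proteins misfold. In the endoplasmic reticulum (ER) the genes are raised by the unfolded protein response through ER stress elements. Proteins that enter mitochondria are pulled in by the mitochondrial HSP70 and folded in the chamber of HSPD1 and its lid HSPE1, and cells with misfolded mitochondrial protein are known to raise these genes. SHMT2, the gene knocked down, encodes the serine hydroxymethyltransferase of mitochondria, which feeds folate metabolism.

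The libraries held from 533689 to 890574 counts on genes, with the fewest in siSHMT2 replicate 1. The 10 chaperone genes took from 0.297% to 0.356% of the counts of a library. SHMT2 had 28, 15 and 20 counts in siNC replicates 1 to 3 and 9, 2 and 5 counts in siSHMT2 replicates 1 to 3. Scaled to a common total over the tested genes (CPM), these came to 34.8, 24.9 and 22.7 in siNC and 17.5, 2.61 and 6.27 in siSHMT2. The groups did not overlap, but siSHMT2 replicate 1 lay much nearer to siNC than the other siSHMT2 libraries did. The SHMT2 log2 fold change was -1.78 ± 0.48 (SE), with an unadjusted p of 0.00056 and an adjusted p of 0.93 in edgeR. The study also reports lower SHMT2 RNA by RT-qPCR and lower SHMT2 protein by Western blot. All 10 epithelial markers examined passed the filter on low counts, while none of the 7 markers of leukocytes, endothelium and fibroblasts did. Of these, PTPRC, VWF and DCN were at 0 counts, PECAM1 held 2 in all, and CD68 and COL1A1 held 7 each. The fibroblast marker COL1A2 held 62 counts in all, not far under the 72 of the epithelial marker EPCAM, which passed. The kit kept the strand of the RNA, but the strand setting of the counting is not given in the sources used here. TALAM1, which lies antisense to MALAT1, held 138110 counts in all against 1916 for MALAT1. The counts on genes given above were also far fewer than the reads per sample that the study reports. It is therefore in doubt whether a gene's count holds all reads of its own strand, a small part of them, or reads of the opposite strand. Which of these holds was not tested. The levels, ranks and fold changes below describe the counts as deposited, and may not be those of the mRNA. In bulk RNA, fewer cells expressing a gene and less RNA per cell cannot be told apart.

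Sequences before the start sites are shown first, since they show which members have the letters of heat shock or ER stress elements there. All 10 genes matched RefSeq entries (GRCh38.p14), with 16 start sites in all, and the 250 bases before each start were searched on both strands. A heat shock element of 3 units was taken as GAANNTTCNNGAA or its reverse complement TTCNNGAANNTTC, and an element of 2 units as GAANNTTC or TTCNNGAA, so each 3-unit match also holds 2-unit matches. Among all 35116 RefSeq start sites, 0.441% had a 3-unit match and 11.6% a 2-unit match. The ER stress element was taken as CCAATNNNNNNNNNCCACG or its reverse complement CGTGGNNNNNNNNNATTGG, which 0.074% of the start sites had. In the windows below, written 5′ to 3′ on the strand of the gene, capitals mark the matched letters.

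The first HSPA8 window lies at chr11:123062346-123062374 (minus strand) and the second at chr11:123062171-123062199, which is nearer to the start. The HSP90AA1 window lies at chr14:102087093-102087144 (minus strand). The HSP90AB1 windows lie at chr6:44247766-44247802 and chr6:44247819-44247855 (plus strand), before the last of its 3 listed starts. The HSPB1 window lies at chr7:76302479-76302510 (plus strand), the DNAJB1 window at chr19:14518425-14518486 (minus strand) and the HSPD1 window at chr2:197500062-197500090 (minus strand).
HSPA8 far window: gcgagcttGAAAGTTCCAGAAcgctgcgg
HSPA8 near window: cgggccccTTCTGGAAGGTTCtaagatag
HSP90AA1: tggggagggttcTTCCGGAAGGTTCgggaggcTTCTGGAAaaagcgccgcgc
HSP90AB1 far window: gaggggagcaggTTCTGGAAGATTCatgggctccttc
HSP90AB1 near window: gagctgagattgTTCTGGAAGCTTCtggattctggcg
HSPB1: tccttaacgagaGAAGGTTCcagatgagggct
DNAJB1: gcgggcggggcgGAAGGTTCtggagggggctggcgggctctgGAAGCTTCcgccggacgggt
HSPD1: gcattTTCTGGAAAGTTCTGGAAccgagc

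HSPA8, HSP90AA1, HSP90AB1 and HSPD1 had 3-unit matches, while HSPB1 and DNAJB1 had matches of 2 units only. The ER stress element was found before HSPA5 at chr9:125241386-125241414 (minus strand) and at 2 places before HSP90B1, at chr12:103930211-103930239 and chr12:103930316-103930344 (plus strand). The near HSP90B1 window holds the reverse complement.
HSPA5: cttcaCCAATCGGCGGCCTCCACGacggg
HSP90B1 far window: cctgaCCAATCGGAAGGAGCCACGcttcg
HSP90B1 near window: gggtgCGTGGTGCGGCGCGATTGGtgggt

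HSPE1 and HSPA9 had no match of any of these letters in their windows. That says only that these letters are not in those 250 bases. The HSPD1 window printed above also lies before the HSPE1 start, just outside the 250 bases searched for HSPE1. HSPE1 and HSPD1 are transcribed in opposite directions on chromosome 2, and the start of HSPE1 lies 105 bases from the nearer HSPD1 start and 539 bases from the other, which is the start that follows the HSPD1 window above. A match of letters is a description, and binding was not tested.

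Per gene length the cytosolic HSP90 genes and HSPA8 were the most abundant of the 10. Levels are given as FPKM, the count over the length of the gene as listed and over the library's total, which suits comparison between genes. HSP90AB1, the constitutive HSP90, had 351 ± 45.0 FPKM (SD, n = 6 libraries) and lay above every other member in all 6 libraries. HSP90AA1, its stress-inducible paralogue, had 163 ± 16.2 FPKM, and HSPA8, the constitutive HSP70, had 159 ± 22.6 FPKM (SD, n = 6). Those 2 genes could not be put in order, since HSP90AA1 was above HSPA8 in 3 of the 6 libraries. Both lay above the ER chaperones in every library, where HSP90B1 (the ER HSP90, or GRP94) had 72.0 ± 6.69 FPKM and HSPA5 (the ER HSP70, or BiP) had 65.1 ± 6.69 FPKM (SD, n = 6).

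The ER genes overlapped each other and also HSPB1, the small heat shock protein HSP27, which had 53.1 ± 20.9 FPKM with a range from 31.2 to 92.7. The mitochondrial genes followed, with HSPE1 at 41.3 ± 17.2, HSPD1 at 30.6 ± 5.70 and HSPA9 (mortalin, the mitochondrial HSP70) at 29.8 ± 4.88 FPKM (SD, n = 6), and neighbours in this order overlapped in their ranges. DNAJB1, a J-domain cochaperone that hands substrates to HSP70, was the lowest at 12.7 ± 3.84 FPKM and lay under HSPA9 in all 6 libraries. In mean FPKM, HSP90AB1 stood above 98.2% of the tested genes and DNAJB1 above 58.8% of them, so the members span from moderate to high levels. The inducible HSP70 genes HSPA1A and HSPA1B, which are nearly identical copies, had 0 counts in each of the 6 libraries, where a count of 0 allows up to 3 counts, and reads shared between such copies may not have been counted.

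**Figure D1:**
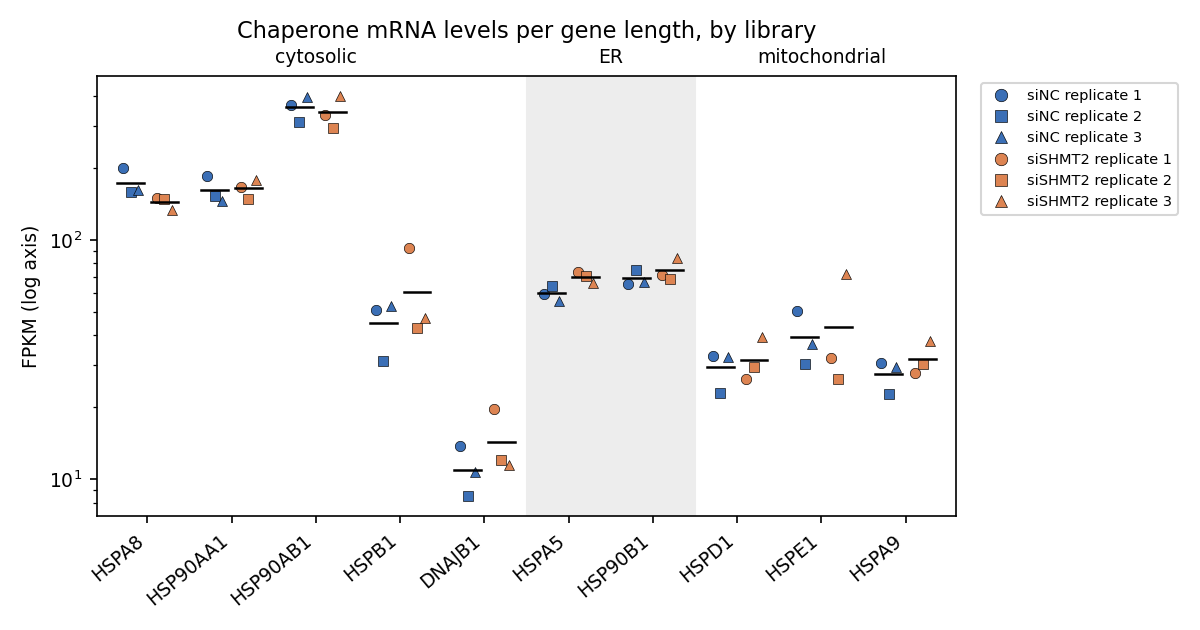
FPKM of the 10 chaperone genes on a log axis, with a point for each library and a line at the mean of the 3 libraries of a group. The cytosolic HSP90 genes and HSPA8 lie highest and DNAJB1 lowest, and the siNC (blue) and siSHMT2 (orange) points of most genes overlap.

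None of the 10 chaperone genes passed an adjusted p under 0.05 together with a change of more than 1.5-fold in edgeR's quasi-likelihood test. Of the 7207 genes tested, 0 (0%) did, and the adjusted p of each chaperone gene was 0.999. At an unadjusted p under 0.05 edgeR called 277 genes (3.84%), of which HSPA8 was the single chaperone gene among the 10. DESeq2 on the same genes called 117 genes at this unadjusted threshold, limma on log2(FPKM + 1) called 309, and neither had a chaperone gene among them or a gene past the adjusted criteria. Of the 10 genes, 8 had a log2 fold change above 0, beside 3588 of the 7207 tested genes. Of those above 0, HSP90AA1, HSPB1, HSPD1 and HSPE1 turned in direction when certain single libraries were left out. The median of the 10 genes was 0.14, beside -0.0010 over all tested genes. The groups of 3 libraries did not overlap in log2 CPM for 1 of the 10 genes and for 9.2% of all tested genes.

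**Figure D2:**
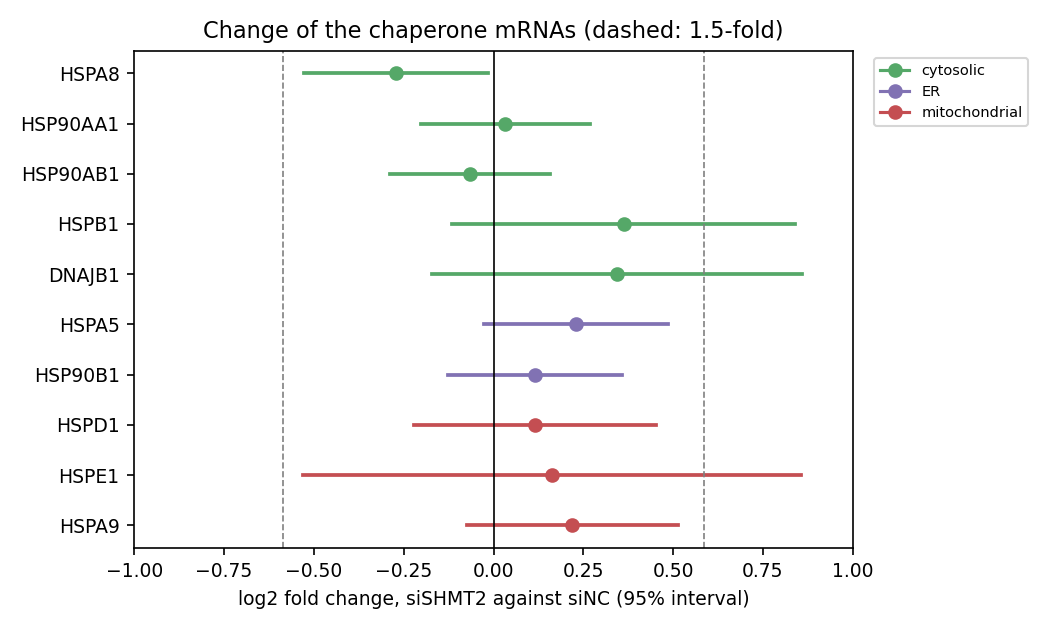
Log2 fold change of each chaperone gene in siSHMT2 against siNC (points) with its 95% interval from edgeR (bars), coloured by compartment, and dashed lines at a change of 1.5-fold in either direction. The interval of HSPA8 lies under 0, those of the other genes include 0, and those of HSPB1, DNAJB1 and HSPE1 reach past 1.5-fold.

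HSPA8 (ENSG00000109971, chr11:123057489-123063230, minus strand) carries the HSP70 work of unstressed cells. It had 377, 242 and 334 counts in siNC replicates 1 to 3 and 184, 281 and 250 counts in siSHMT2 replicates 1 to 3. Scaled to a common total over the tested genes by TMM normalization (CPM), these came to 469, 401 and 379 for siNC, against 357, 366 and 313 in siSHMT2. All 3 siSHMT2 libraries lay under all 3 siNC libraries, and the gap between the nearest values, in siNC replicate 3 and siSHMT2 replicate 2, was small beside the spread within siNC. HSPA8 thus had a log2 difference of -0.27 ± 0.13 (SE), or a change of -17.2% with a 95% interval from -30.7% to -1.13%. In edgeR the unadjusted p was 0.038, and 0.999 after Benjamini-Hochberg adjustment. A two-sided exact permutation test on FPKM gave 0.1, which is the lowest p that 3 libraries against 3 can reach. Without siNC replicate 1, its highest library, the log2 difference was -0.17 with an unadjusted p of 0.26 in edgeR, and without siSHMT2 replicate 3 it was -0.20 with an unadjusted p of 0.16. Its 17 annotated pseudogenes held 18 counts in all, beside 1668 for HSPA8.

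The cytosolic HSP90 genes differed by little between the groups. HSP90AB1 (ENSG00000096384, chr6:44246166-44253888, plus strand) had 806, 550 and 948 counts in siNC and 476, 644 and 874 counts in siSHMT2 replicates 1 to 3, with 359 ± 44.1 FPKM in siNC and 343 ± 54.1 FPKM in siSHMT2 (SD, n = 3). Its log2 fold change was -0.066, with a 95% interval from -0.29 to 0.16. HSP90AA1 (ENSG00000080824, chr14:102080742-102139699, minus strand) had 530, 355 and 456 counts in siNC and 312, 429 and 511 in siSHMT2. Its FPKM was 161 ± 20.6 in siNC and 165 ± 14.8 in siSHMT2 (SD, n = 3), and its log2 fold change was 0.033, with a 95% interval from -0.20 to 0.27. The groups overlapped for both genes, and both intervals, from the edgeR fit with all 6 libraries, exclude a change of 1.5-fold. Both genes have the 3-unit match printed above, as does HSPA8. The direction of HSP90AA1 turned without siNC replicate 3 (-0.057) and without siSHMT2 replicate 3 (-0.019), and that of HSP90AB1 without siSHMT2 replicate 2 (0.023). WDR20, on the other strand, overlaps HSP90AA1 by 197 exonic bases and had 56 counts in all.

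HSPB1 and DNAJB1 were highest in the same library, siSHMT2 replicate 1. HSPB1 (ENSG00000106211, chr7:76302673-76304295, plus strand) had 61, 30 and 69 counts in siNC and 72, 51 and 56 counts in siSHMT2 replicates 1 to 3. The CPM were 75.9, 49.7 and 78.4 for siNC, against 139.8, 66.5 and 70.2 in siSHMT2, so siSHMT2 replicate 1 stood apart and the other 2 siSHMT2 libraries lay within the siNC range. For HSPB1 the log2 fold change was 0.36 ± 0.24 (SE), with a 95% interval from -0.12 to 0.84, and without siSHMT2 replicate 1 it was -0.014. DNAJB1 (ENSG00000132002, chr19:14514769-14560391, minus strand) had 48, 24 and 41 counts in siNC and 45, 42 and 40 counts in siSHMT2. The CPM were 59.7, 39.8 and 46.6 for siNC, against 87.4, 54.7 and 50.1 in siSHMT2, again with the highest value in siSHMT2 replicate 1. For DNAJB1 it was 0.34 ± 0.26 (SE), with a 95% interval from -0.17 to 0.86, and without siSHMT2 replicate 1 it was 0.094. TECR, on the other strand, overlaps DNAJB1 by 525 exonic bases and had 104 counts in all.

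Both HSPB1 and DNAJB1 were lowest in siNC replicate 2. Over the 6 libraries their log2 CPM had a Pearson's r of 0.93 and a Spearman's rho of 0.60, which are given as a description, since the points share their libraries. Without siSHMT2 replicate 1 the r was 0.70 over 5 libraries. That library also had the lowest total count, and the part of its depth in these values was not tested. Among the siSHMT2 libraries it also had the highest SHMT2 level, at 17.5 CPM, and the part of this in these values was not tested. The windows of HSPB1 and DNAJB1 hold exact matches of 2 units only, and a link between these letters and the levels was not tested.

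**Figure D3:**
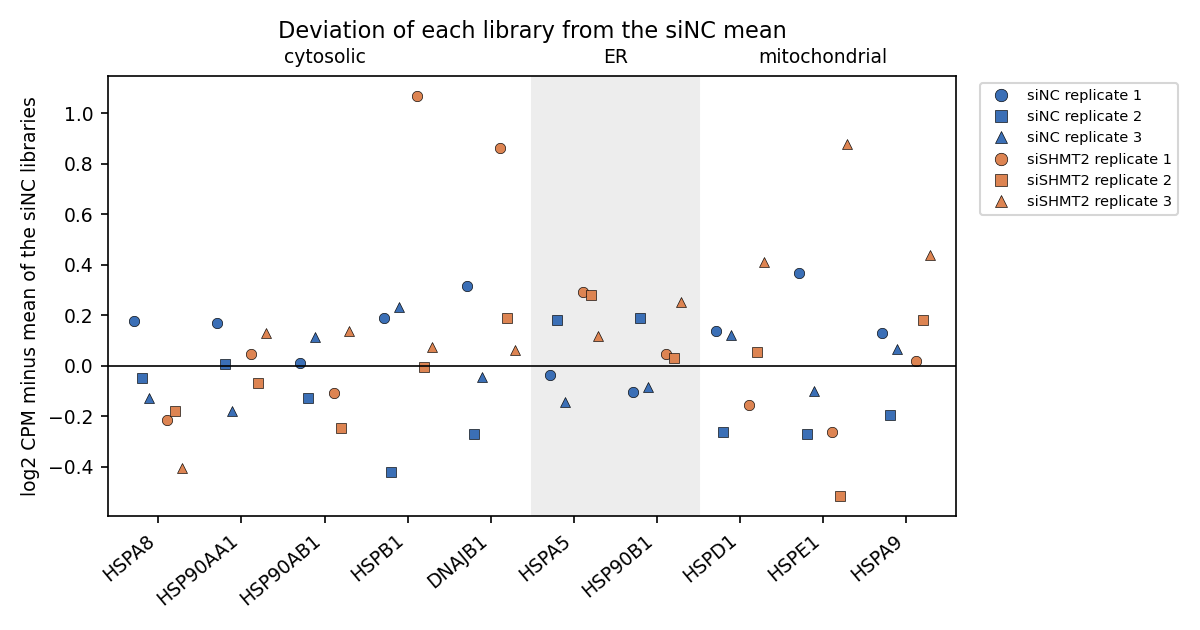
Log2 CPM of each library minus the mean of the siNC libraries, for each chaperone gene, with a symbol for each replicate. HSPB1 and DNAJB1 stand out in siSHMT2 replicate 1 and the 3 mitochondrial genes in siSHMT2 replicate 3, while the siSHMT2 points of HSPA8 all lie under the siNC points.

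Both ER chaperones had fold changes above 0 in siSHMT2, and neither passed the test. HSPA5 (ENSG00000044574, chr9:125234853-125241382, minus strand) had 264, 230 and 268 counts in siNC and 212, 314 and 291 counts in siSHMT2 replicates 1 to 3. The FPKM were 59.8, 64.5 and 55.7 for siNC, against 73.5, 71.0 and 66.1 for siSHMT2, and the groups did not overlap (exact permutation p = 0.1, again the lowest reachable). In FPKM this held for 9.23% of all tested genes, and among the 10 genes for HSPA5 and HSPA8. After TMM normalization the CPM were 329, 381 and 304 for siNC, against 412, 409 and 365 in siSHMT2, where siNC replicate 2 lay above siSHMT2 replicate 3, so whether the groups were apart depended on the scaling. For HSPA5 the log2 fold change was 0.23 ± 0.13 (SE), or 17.2% with a 95% interval from -1.9% to 40.1%.

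HSP90B1 (ENSG00000166598, chr12:103930107-103953931, plus strand) had 355, 327 and 395 counts in siNC and 253, 373 and 452 counts in siSHMT2. The CPM were 442, 542 and 449 for siNC, against 491, 486 and 567 in siSHMT2, so siNC replicate 2 lay among the siSHMT2 libraries, as it did for HSPA5. Its log2 fold change was 0.12, with a 95% interval from -0.13 to 0.36. UQCC6, on the opposite strand, shares 805 exonic bases (6.15%) with HSP90B1 and had from 400 to 603 counts a library, more in all (2963) than HSP90B1 (2155), and without the strand setting their reads cannot be told apart there. No annotated gene overlaps the exons of HSPA5. HSPA5 and HSP90B1 are the members with the ER stress element match printed above.

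The mitochondrial chaperones gave no call at either threshold. HSPD1 (ENSG00000144381, chr2:197486584-197516737, minus strand), which forms the folding chamber, had 132, 75 and 143 counts in siNC and 69, 119 and 158 counts in siSHMT2 replicates 1 to 3. The CPM were 164, 124 and 162 for siNC, against 134, 155 and 198 in siSHMT2, with the highest value in siSHMT2 replicate 3, the lowest in siNC replicate 2, and siSHMT2 replicate 1 the second lowest. The HSPD1 log2 fold change was 0.12 ± 0.17 (SE), or 8.34% with a 95% interval from -14.2% to 36.9%. Without siSHMT2 replicate 3 it was -0.060.

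HSPE1 (ENSG00000115541, chr2:197500140-197503449, plus strand), the lid of the chamber, had the fewest counts of the 10 genes. It had 29, 14 and 23 counts in siNC and 12, 15 and 41 counts in siSHMT2. The CPM were 36.1, 23.2 and 26.1 for siNC, against 23.3, 19.6 and 51.4 in siSHMT2, so a single library of siSHMT2 was above siNC and another was the lowest of all 6. The HSPE1 log2 fold change was 0.16 ± 0.34 (SE), with a 95% interval from -0.53 to 0.85, and without siSHMT2 replicate 3 it was -0.44. The readthrough gene HSPE1-MOB4, which contains HSPE1 exons, had 2 counts in all, and adding them gave 0.20. HSPE1 also shares 135 exonic bases (7.41% of its own) with HSPD1 on the other strand.

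HSPA9 (ENSG00000113013, chr5:138553756-138575675, minus strand), the HSP70 of the matrix and of the import motor, had 187, 112 and 196 counts in siNC and 111, 185 and 230 counts in siSHMT2. The CPM were 233, 186 and 223 for siNC, against 216, 241 and 288 in siSHMT2, with siSHMT2 replicates 2 and 3 above siNC and siSHMT2 replicate 1 among the siNC libraries. The HSPA9 log2 fold change was 0.22 ± 0.15 (SE), or 16.4% with a 95% interval from -4.98% to 42.7%. For HSPD1 and HSPA9 the intervals of the edgeR fit with all 6 libraries exclude a rise of 1.5-fold, while that of HSPE1, with the fewest counts, does not. This holds for that fit only, and intervals of the alternatives are not given here. With a library left out, the HSPA9 log2 fold change ranged from 0.093 (without siSHMT2 replicate 3) to 0.30 (without siSHMT2 replicate 1).

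HSPD1 and HSPA9 had the same lowest and the same highest library. The Pearson's r of their log2 CPM was 0.93 (Spearman's rho 0.83), the highest r of the 45 pairs among the 10 genes. HSPD1 and HSPE1, whose starts lie side by side, had r = 0.78 (rho 0.83). A pair from different compartments, the cytosolic HSP90AB1 and the mitochondrial HSPE1, had r = 0.79 and the highest rho of the 45 pairs, 0.94. Per gene length the ratio of HSPD1 to HSPA9 was 1.07, 1.01 and 1.10 in siNC replicates 1 to 3 and 0.941, 0.973 and 1.04 in siSHMT2 replicates 1 to 3, a narrow range. The ratio of HSPD1 to HSPE1 ranged from 0.547 to 1.13, both ends in siSHMT2. These are descriptions over 6 points, and within a library the genes share its depth and composition.

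Summed over its 3 genes, the mitochondrial level was 433, 333 and 411 CPM in siNC replicates 1 to 3 and 373, 416 and 538 CPM in siSHMT2 replicates 1 to 3. The groups overlapped; siSHMT2 replicate 3 alone lay above all siNC libraries. The ratio of the group means was 1.13, and without siSHMT2 replicate 3 it was 1.00. The ER sum was 770, 923 and 753 CPM in siNC and 903, 895 and 932 CPM in siSHMT2, a ratio of 1.12, with siNC replicate 2 within the siSHMT2 range and siSHMT2 showing the smaller spread. In summed FPKM the ER groups did not overlap, at 129 ± 8.89 in siNC and 145 ± 5.05 in siSHMT2 (SD, n = 3). The cytosolic sum, led by HSP90AB1, was 2268, 1991 and 2099 CPM in siNC and 2114, 1886 and 2170 CPM in siSHMT2, a ratio of 0.971.

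Ratios within a library do not depend on how libraries are scaled. The mitochondrial sum over the cytosolic sum was 0.191, 0.167 and 0.196 in siNC and 0.176, 0.220 and 0.248 in siSHMT2, so siSHMT2 replicates 2 and 3 lay above siNC and siSHMT2 replicate 1 among them. The ER sum over the cytosolic sum was 0.340, 0.464 and 0.359 in siNC and 0.427, 0.475 and 0.429 in siSHMT2, and the groups overlapped through siNC replicate 2. No test was run on the sums or ratios.

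Of the 45 pairs of the 10 genes, 5 had count ratios that did not overlap between the groups, a share near that of 9.37% over all pairs of tested genes with a count in every library. The count of pairs is thus no result about the chaperones, and the ratios below are given as values, chosen after they were seen and with no test. HSPA5 over HSPA8 was 0.700, 0.950 and 0.802 in siNC and 1.15, 1.12 and 1.16 in siSHMT2, or 0.818 ± 0.126 and 1.14 ± 0.0242 (SD, n = 3). HSPA9 over HSPA8 was 0.496, 0.463 and 0.587 in siNC and 0.603, 0.658 and 0.920 in siSHMT2. HSP90AA1 over HSPA8 and DNAJB1 over HSPA8 were the other ratios with HSPA8, and HSPA9 over HSP90AB1 was the fifth, at 0.232, 0.204 and 0.207 in siNC and 0.233, 0.287 and 0.263 in siSHMT2. The 4 ratios with HSPA8 share its counts and are not separate observations.

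**Figure D4:**
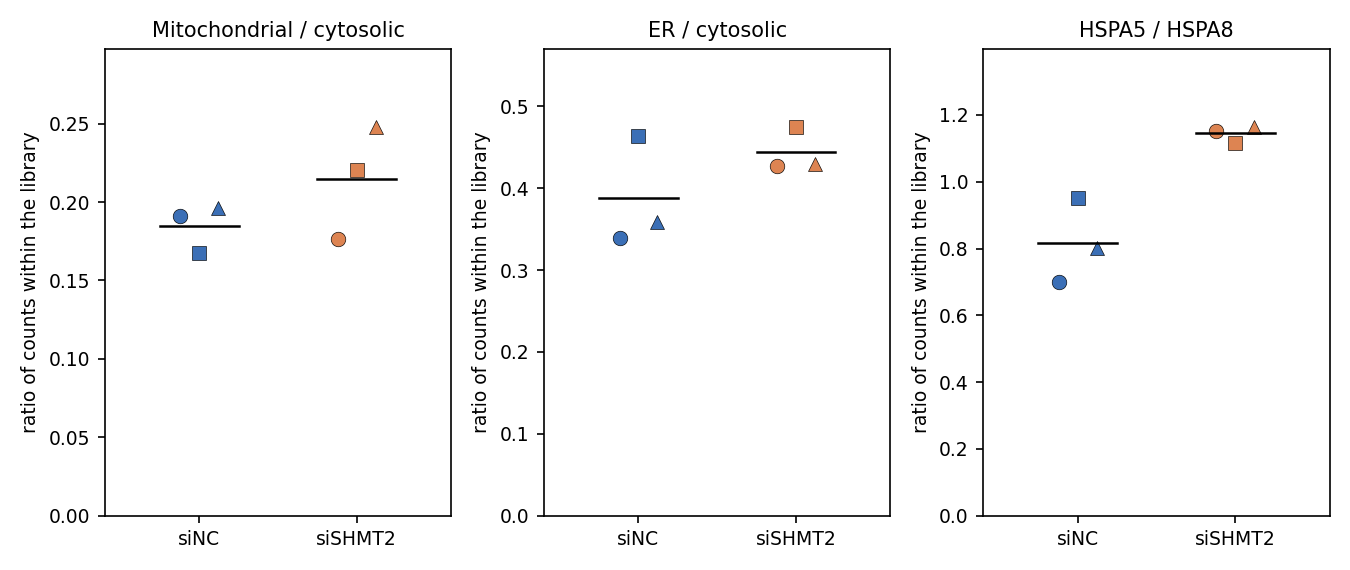
Ratio of summed mitochondrial to cytosolic chaperone counts (left), of summed ER to cytosolic counts (middle) and of HSPA5 to HSPA8 counts (right) in each library, with symbols for replicates 1 (circle), 2 (square) and 3 (triangle) and a line at the group mean. The groups overlap in the left and middle panels, and HSPA5 over HSPA8 lies between 0.700 and 0.950 in siNC and between 1.12 and 1.16 in siSHMT2.

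Other genes of the same systems were taken as lists of cochaperones and HSF1 targets of the cytosol, of the ER unfolded protein response, of mitochondrial import, folding and proteolysis, and of stress regulators. In all, 74 of these 103 genes passed the filter on low counts, a single gene reached an unadjusted p under 0.05 in edgeR, and 0 met the adjusted criteria. This single gene of 74 stands beside the 3.84% of all tested genes at that threshold. The groups did not overlap in log2 CPM for 8 of the 74, beside 9.2% of all tested genes. The 31 tested cytosolic genes had a median log2 fold change of 0.034, with 18 above 0 and 13 below, and 0 had an unadjusted p under 0.05. Those with the smallest p were the J-domain cochaperone DNAJB2 (0.86 ± 0.46, SE) and the HSP110 relative HSPA4L (0.46 ± 0.32, SE), followed by the chaperonin subunits CCT2 (-0.41) and CCT6A (0.30), which belong to the same ring. Of the cytosolic genes, 3 had groups that did not overlap, with BAG3 and HSBP1 higher and STIP1 lower in siSHMT2. HSPH1, a nucleotide exchange factor for HSP70 and an HSF1 target, had a log2 fold change of 0.034, and HSF1 itself, with 73 counts in all, had 0.18.

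The ER list had 21 tested genes, with 4 above 0 and 17 below, a median log2 fold change of -0.13 and 0 genes at an unadjusted p under 0.05. The median over all tested genes was -0.0010, and HSPA5 (0.23) and HSP90B1 (0.12) lay on the other side of it. PDIA6, a disulfide isomerase, had the smallest p of the list at -0.42 ± 0.22 (SE), and 73, 37 and 86 counts in siNC and 34, 45 and 52 counts in siSHMT2. P4HB, also a disulfide isomerase, had -0.20, DNAJC10 -0.49 and the lectin chaperone CALR 0.13. P4HB was the 1 gene of the 21 whose groups did not overlap, with lower values in siSHMT2, beside 9.2% of all tested genes.

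In the mitochondrial list 19 genes were tested, with 8 above 0 and 11 below and a median log2 fold change of -0.083. TXN2, the mitochondrial thioredoxin, was the single gene of the 19 with an unadjusted p under 0.05 in edgeR, beside 3.84% of all tested genes. It had 18, 13 and 20 counts in siNC and 9, 8 and 6 counts in siSHMT2. For TXN2 the log2 fold change was -0.97 ± 0.44 (SE), and the edgeR adjusted p was 0.999. DNAJA3, the J-domain partner of HSPA9, had 9, 8 and 14 counts in siNC and 15, 17 and 14 in siSHMT2, at 0.72 ± 0.42 (SE). CLPP, a matrix protease, had 0.59 ± 0.48 (SE), and TIMM44, which anchors HSPA9 to the import channel, had 0.36 ± 0.35 (SE). LONP1, another matrix protease, had -0.12, with a 95% interval from -0.68 to 0.43. The groups did not overlap in log2 CPM for 4 of the 19 genes, beside 9.2% of all tested genes. Of these 4, DNAJA3 and TIMM44 were higher and TXN2 and TRAP1, the mitochondrial HSP90, lower in siSHMT2. TRAP1 had 43, 31 and 45 counts in siNC and 21, 36 and 36 counts in siSHMT2, at -0.22 ± 0.25 (SE). ATF5, a factor tied to this response, had 38 counts in all and was not tested.

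The stress regulators are genes of the integrated stress response, and the 3 that were tested had values below 0 with a median of -0.17. ATF4, its main transcription factor, was at -0.17 ± 0.15 (SE), TRIB3 at -0.31 ± 0.33 (SE) and ATF3 at -0.044 ± 0.48 (SE), and none passed the edgeR test. DDIT3, which encodes CHOP, had 8, 6 and 9 counts in siNC and 7, 8 and 12 counts in siSHMT2 and did not pass the filter.

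**Figure D5:**
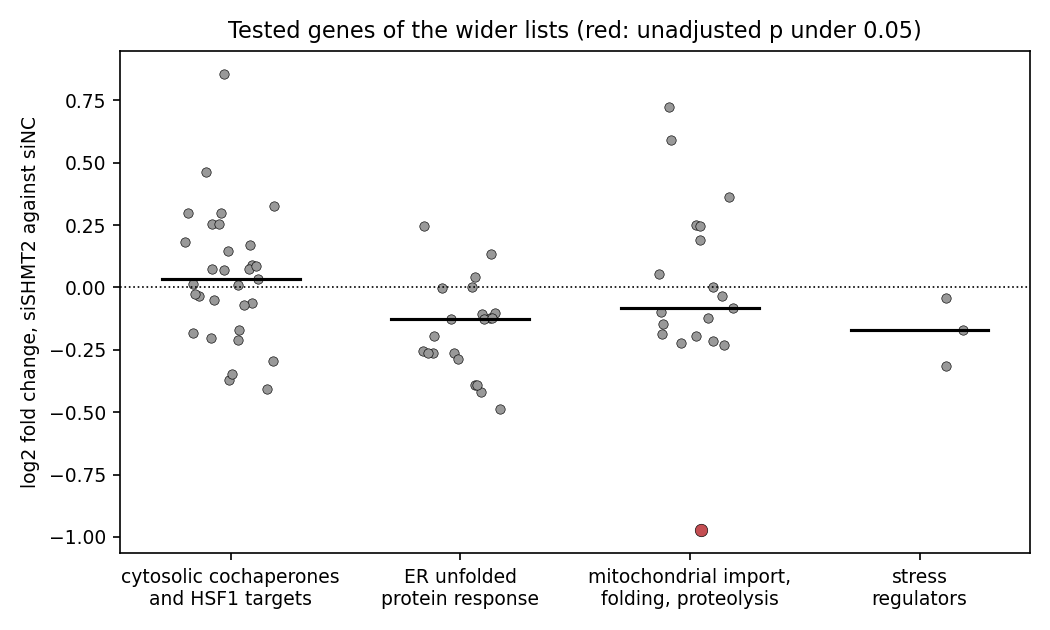
Log2 fold change in siSHMT2 against siNC of the tested genes of the 4 wider lists, with a point for each gene (red for an unadjusted p under 0.05) and a line at the median of the list. The medians are 0.034, -0.13, -0.083 and -0.17 from left to right, and TXN2 is the red point at -0.97.

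The genes whose log2 CPM followed each compartment sum most closely were sought among the tested genes with a mean of at least 100 counts, which numbered 1033 for the cytosolic sum and 1034 for the others. For the mitochondrial sum these were KPNB1 (r = 0.98), TFRC (0.97) and DSC3 (0.97), for the ER sum ERAP1 (0.98), FLJ40194 (0.98) and ITFG2 (0.95), and for the cytosolic sum E2F5 (0.92), EIF5A (0.90) and HK1 (0.88). Each is among the highest Pearson's r of that search over 6 libraries and is a description only.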

How the data were processed

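RNA-seq of HT-1376 cells, 3 siNC and 3 siSHMT2 libraries, was read from the files the authors deposited. Per the labels and methods, the authors checked reads with FastQC 0.11.9, trimmed them with fastp 0.23.4, aligned them to GRCh38 with HISAT2 2.2.1 and used DESeq2 1.42.1. How reads were assigned to genes (program, strand option, gene models) is not given in the sources used here. The deposited counts were whole and not normalized, and the FPKM that the authors deposited equal the count divided by listed length and library total.

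Genes were named by GENCODE release 44. edgeR 4.0.16 in R 4.3.3 (TMM, filterByExpr, quasi-likelihood test, two-sided, no replicate block) compared all 7207 genes tested, with Benjamini-Hochberg adjustment over all of them and 95% intervals from the fitted standard errors. The common biological coefficient of variation was 0.127 and the median count of a tested gene 25. The scripts were tested on simulated data. There, an adjusted p under 0.05 in the right direction was reached by 60.2% of the genes changed 2-fold and 100% of those changed 4-fold. Smaller changes, such as 1.5-fold, were not simulated, so a missing call does not show that a gene was unchanged. Log2 CPM used a prior count of 2. Exact permutation tests of FPKM used scipy 1.17.1.

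The members and lists were chosen with earlier results of these data known. Named were the 10 genes, SHMT2, in each wider list the genes with an unadjusted p under 0.05, filled up to 4 by the smallest p, genes overlapping member exons with 10 or more counts, HSPE1-MOB4, and the 3 genes most like each compartment sum. HSPA1A, HSPA1B, HSPH1, HSF1, BAG3, HSBP1, STIP1, LONP1, TRAP1, ATF5 and DDIT3 were added after their values were seen. Alternatives were DESeq2 1.42.0, RLE size factors, library size only, no filter, a minimum of 10 counts in each library, log2 values tested with limma 3.58.1 on log2(FPKM + 1) or log2(FPKM + 0.1), a replicate block, added readthrough or pseudogene counts, summed FPKM, and each library left out. Figures used matplotlib 3.10.9.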

Additional observations from a re-analysis of the deposited data

How the results depend on the processing

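HSPA8, DNAJB1, HSPA5, HSP90B1 and HSPA9 kept their direction in every alternative, and none of the 10 genes had an adjusted p under 0.05 in any. HSPA8 ranged from -0.34 to -0.17 on the log2 scale, with an unadjusted p from 0.024 to 0.26. Directions turned only where a library was left out, for HSP90AA1 (-0.057 to 0.13), HSP90AB1 (-0.18 to 0.023), HSPB1 (-0.014 to 0.56), HSPD1 (-0.060 to 0.22) and HSPE1 (-0.44 to 0.44). HSP90AA1 was -0.057 without siNC replicate 3 and -0.019 without siSHMT2 replicate 3, HSP90AB1 was 0.023 without siSHMT2 replicate 2, HSPB1 was -0.014 without siSHMT2 replicate 1, and HSPD1 was -0.060 and HSPE1 -0.44 without siSHMT2 replicate 3. The number of the 10 genes at an unadjusted p under 0.05 was 1 as reported, 0 with DESeq2 and with limma at either pseudocount, and 0 to 2 with a library left out, being 0 without siNC replicate 1 and 2 (with HSPA5 or HSPB1 added or in place of HSPA8) without siNC replicate 2, siSHMT2 replicate 2 or siSHMT2 replicate 3. The number in the wider lists was 1 as reported, 0 with DESeq2 and among genes with at least 10 counts, 3 without a filter, 2 with limma at either pseudocount, and 0 to 5 with a library left out, being 0 without siNC replicate 3 and 5 without siSHMT2 replicate 3. Over all genes it was 277 as reported, 117 with DESeq2, 699 without a filter, which tested 20836 genes, and 292 to 412 with a library left out. Genes past the adjusted criteria numbered 0 in the alternatives with 6 libraries and 0 to 1 with a library left out, the 1 without siSHMT2 replicate 3. The cause of the differences between tools was not tested. Whether libraries with the same replicate number were made together is not stated. The correlations of their deviations from the group means were -0.02, 0.05 and -0.01, and not every library correlated best with its own number. Such values cannot decide whether the libraries were paired. The replicate block gave 304 genes at an unadjusted p under 0.05, beside 277 without it. It gave -0.27 for HSPA8 and changed no call among the 10 genes. HSPE1 had 12 to 41 counts a library.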
